A study of Mus musculus with 12 samples.

Results

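Tumours given chemotherapy together with dual immune checkpoint blockade (Combination) were set against tumours given chemotherapy alone (GC), 3 libraries against 3, which is 6 of the 12 libraries of the study. Levels are FPKM, fragments scaled by transcript length and by the mapped fragments of the library. Genes averaging at least 1 FPKM over these 6 libraries were compared, 12950 of 24421 gene symbols. All tumours were murine 425-ICC, an intrahepatic cholangiocarcinoma (a bile duct cancer that grows within the liver), taken after 8 days of treatment and read by bulk sequencing of total RNA. For the chemotherapy the labels give only GC, read here as gemcitabine plus cisplatin, and for the blockade the series title names CTLA-4 and PD1. Both groups therefore carried the chemotherapy, and the blockade was the labelled difference between them. The other 6 libraries, 3 Control tumours given IgG and 3 ICB tumours given the blockade alone, are used for reference levels and for the test of whether the blockade's difference depended on chemotherapy. Strain, sex and age of the mice, doses, and whether the samples came from separate animals are not given in the sources used here, so p-values rest on the spread between these libraries only, which may be technical.

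PD-1 and CTLA-4 are inhibitory receptors of T cells, and antibodies against them are given to release T cell activity against tumour cells. Gemcitabine is a nucleoside analogue that halts DNA synthesis, and cisplatin crosslinks DNA. An intrahepatic cholangiocarcinoma is known for a dense stroma of collagen-producing fibroblasts and grows among hepatocytes, the cells that make plasma proteins, urea and bile, so a piece of tumour can carry RNA of the tissue around it.

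The libraries differed in tissue content before any gene was compared. Hepatocyte markers (20 genes, among them Alb and Apoa1) made up 0.756%, 18.96% and 7.55% of all FPKM in Combination replicates 1, 2 and 3, and 0.397%, 0.138% and 1.23% in the GC libraries. Markers of small intestine enterocytes made up 1.06% in Combination replicate 1, where goblet and Paneth cell genes had a mean log2(FPKM + 1) of 6.48, and no more than 0.88 elsewhere. Skeletal muscle genes averaged 7.69 in GC replicate 2 and 0.37 to 1.01 in the remaining 5 libraries. Spearman correlations between GC libraries were 0.923 to 0.962, and between Combination libraries 0.608 to 0.858, so that Combination replicate 1 lay closer to GC replicate 1 (0.898) than to Combination replicate 2. Total FPKM ran from 547146 to 642223, and 15232 to 16442 symbols were above 0. Sequencing depth is unknown.

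**Figure D1:**
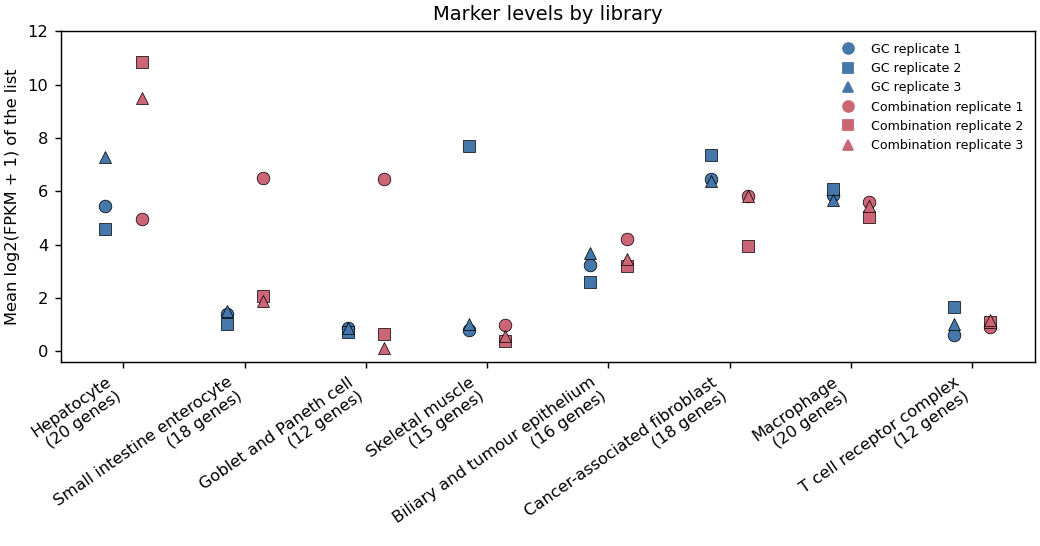
Mean log2(FPKM + 1) of 8 cell type marker lists in each of the 6 libraries, with 1 symbol per library (blue GC, red Combination, symbol shape for the replicate number). Hepatocyte genes are highest in Combination replicates 2 and 3, intestinal genes in Combination replicate 1 and muscle genes in GC replicate 2.

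With blockade added, 2 genes rose and 1 fell at an adjusted p under 0.05 (limma on log2(FPKM + 1), Benjamini-Hochberg over all genes tested). The rises were 0.0154% of the genes tested and the fall 0.00772%, while 1055 genes had an unadjusted p under 0.05. The median difference over all genes was -0.36 (quartiles -0.66 and -0.01), and 3204 differences were above 0. In 580 genes (4.48%) all 3 Combination libraries lay above all 3 GC libraries, and in 1836 (14.2%) all lay below. Scaling each library by its median ratio to the others moved that median to -0.00 and turned these counts into 1101 above (8.5%) and 906 below (7%). Genes called were then 1 up and 1 down, and 3 up and 1 down after quantile normalisation. A low difference is therefore read against the median of -0.36, which was -0.11 without Combination replicate 2 (scaling factor 0.575, against 1.01 to 1.23 in the other 5).

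**Figure D2:**
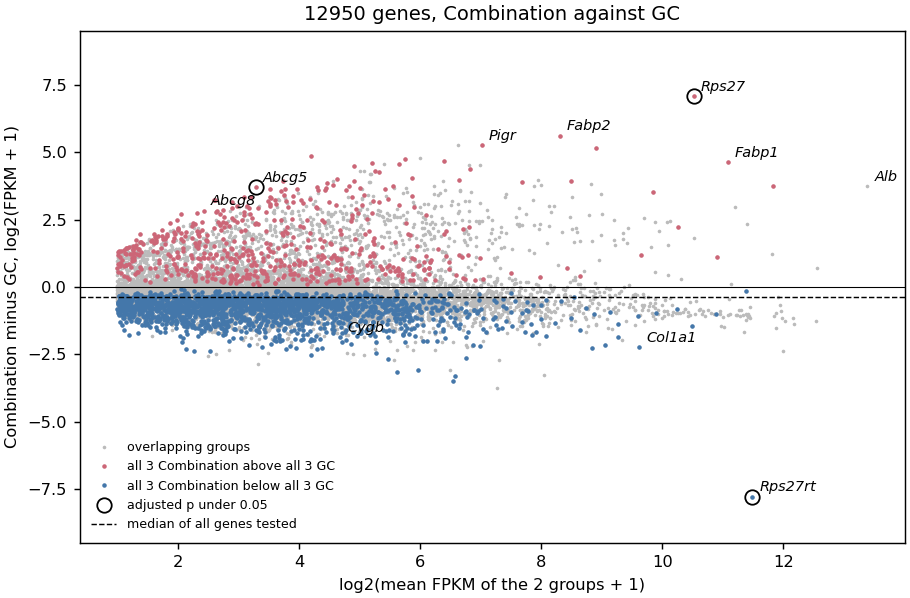
Difference between Combination and GC on log2(FPKM + 1) against the mean level for 12950 genes. Red points have all 3 Combination libraries above all 3 GC libraries (580 genes), blue points all below (1836 genes), circles mark the 3 genes that passed the test, and the dashed line is the median of -0.36.

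Abcg5 was the first of the 2 genes that rose. It encodes a subunit of the sterol transporter that moves cholesterol and plant sterols out of hepatocytes into bile and out of enterocytes into the gut. Its level was 18.8, 16.0 and 16.6 FPKM in the Combination libraries and 0.205, 0.116 and 0.995 FPKM in the GC libraries. The groups lay far apart, and the 3 Combination values lay within a narrow range. The part of hepatocyte and intestinal content in this difference was not tested. The rise was 3.70 ± 0.30 (SE, limma adjusted p = 0.0487), a ratio of mean FPKM of 39.1. In Control it was listed at 0 in all 3 libraries and in ICB it was at most 0.132 FPKM. Abcg5 reached the mean needed for testing through the Combination libraries alone. The call held without Combination replicate 1 (adjusted p = 0.0115) and was lost without each of the other 5 libraries (adjusted p = 0.106 to 0.416).

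Abcg8, the partner subunit, followed the same order of groups. It stood at 8.63, 7.28 and 9.32 FPKM in Combination and at 0.205, 0.249 and 0.532 FPKM in GC, with no overlap. Like Abcg5, Abcg8 reached the mean needed for testing through the Combination libraries alone. The difference was 2.83 ± 0.25 and missed the threshold (limma adjusted p = 0.0586). In mouse GRCm38 the genes lie head to head on chromosome 17, Abcg5 on the minus strand (84658234 to 84683011) and Abcg8 on the plus strand (84676302 to 84700333, GENCODE M21). Their annotated bodies overlap on opposite strands and the use of strand in counting is not stated, so reads from the overlap cannot be told apart.

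The shared stretch between both RefSeq start sites is printed because the pair had the smallest p-values of any tested genes except Rps27 and Rps27rt. It holds 109 bases, chr17:84683012-84683120 (GRCm38.p6, plus strand, RefSeq), and capitals mark matches on either strand to AGATAA, the motif of GATA factors, and to TATAAA, the TATA box.
Abcg5 to Abcg8: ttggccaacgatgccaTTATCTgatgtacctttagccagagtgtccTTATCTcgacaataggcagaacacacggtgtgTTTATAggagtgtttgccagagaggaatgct
The GATA motif occurred 2 times and the TATA box 1 time, with no overlap between them. Of 32851 mouse promoter windows of the same length, 3.98% held at least 1 AGATAA and 5.90% a TATAAA. The letters CAAAGT of HNF4 sites and AAGGTCA of NR5A2 sites had 0 matches each.

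The other 2 called genes are near-identical copies. Rps27, a protein of the small ribosomal subunit (chromosome 3, 90212522 to 90213651, minus strand), was listed at 4473, 1154 and 3127 FPKM in Combination and at 17.7, 18.9 and 16.1 FPKM in GC. Its copy Rps27rt (chromosome 9, 114982366 to 114982739, minus strand) took the opposite order, 50.2, 8.70 and 31.2 FPKM against 7345, 4387 and 5320 FPKM. The fitted differences were 7.09 ± 0.53 and -7.79 ± 0.65 (limma adjusted p = 0.0487 each). The transcripts Rps27-201 and Rps27rt-201 share 341 of 341 aligned bases, so reads cannot be assigned to either, and both calls are uncertain. The same exchange ran within the ICB group, where Rps27 and Rps27rt were at 17.1 and 8039 FPKM in replicate 1 and at 9018 and 69.5 FPKM in replicate 2. Control libraries had the order of the Combination libraries. Among 23 other cytosolic ribosomal protein genes none passed, 2 were separated, below (Rpl11 and Rpl23), and their median difference was -0.87.

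The genes of next smallest p on the higher side also did not overlap between groups, and none passed the threshold (limma adjusted p = 0.101 to 0.191). Cyp2b10, a drug-metabolising cytochrome P450, was listed at 0, 0.0809 and 0 FPKM in GC and at 26.2, 63.6 and 14.7 FPKM in Combination. It was listed at 0 in all Control and ICB libraries too. Pigr, the receptor that carries immunoglobulin A across liver and gut epithelium, stood at 86.3, 442 and 226 FPKM against 3.79, 2.23 and 9.01 FPKM (5.26 ± 0.69, adjusted p = 0.167). H2-Q1, a nonclassical MHC class I gene, stood at 17.5, 27.7 and 15.8 FPKM against 0, 1.23 and 1.05 FPKM (3.65 ± 0.40, adjusted p = 0.101). H2-Q1 has close paralogs in the H2 region, so its value is uncertain. Of the rest, Mgam, Dpp4, Enpep and Entpd8 encode enzymes of the outer membrane of epithelial cells that cut sugars, peptides and nucleotides, and their differences ran from 2.80 to 3.33. Dpp4 may stand for them, at 11.9, 18.7 and 6.87 FPKM in Combination and 0.219, 0.189 and 0.912 FPKM in GC. Tm6sf2, which takes part in the lipidation of lipoproteins (3.17 ± 0.41), and Akr1c19, an aldo-keto reductase (3.23 ± 0.35), completed the group. Of these genes only Pigr and Tm6sf2 averaged at least 1 FPKM in GC. The others, with Enpep highest at a GC mean of 0.888 FPKM, reached the mean needed for testing through the Combination libraries. Their lack of overlap is therefore no separate support.

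**Figure D3:**
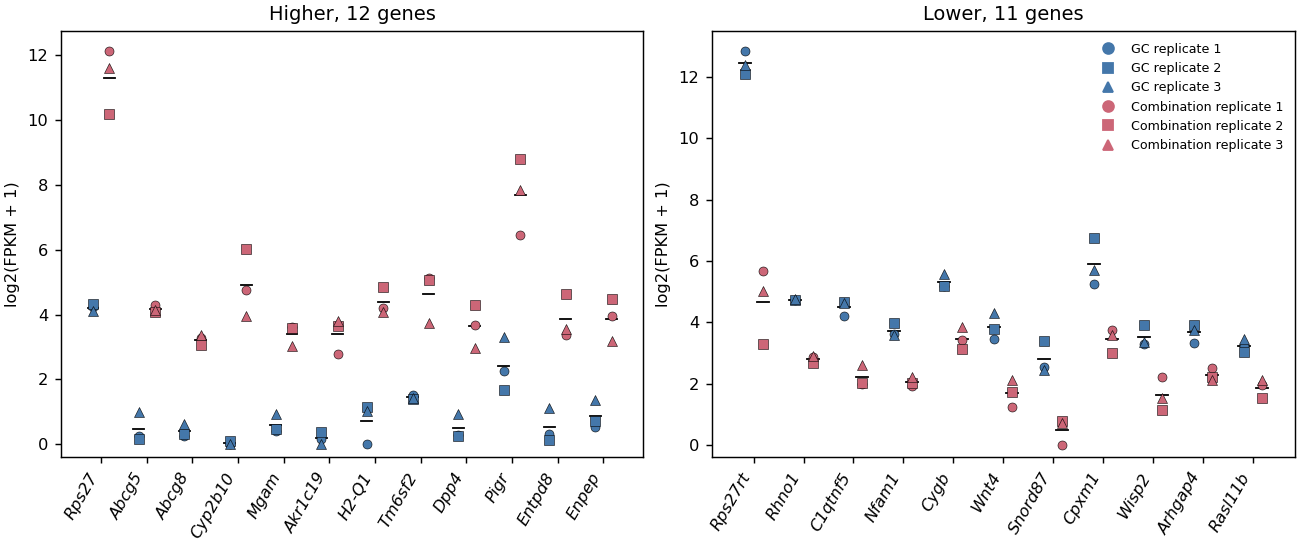
log2(FPKM + 1) of genes of smallest p whose libraries do not overlap, 12 higher and 11 lower in Combination, with 1 symbol per library and a bar at each group's mean. Abcg5 and Abcg8 show the narrowest spread between the Combination libraries on the higher side, and Rps27 and Rps27rt mirror each other.

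Genes of lipid and sterol uptake in the intestine, many of which hepatocytes also use, had the largest share of separated members among the 58 gene lists. Of the 13 tested, Abcg5 passed, 9 had all Combination libraries above all GC libraries and none lay below, against 4.48% of all genes above, and the list median was 3.27. Fabp1, a fatty acid carrier of hepatocytes and enterocytes (chromosome 6, 71199827 to 71205023, plus strand), stood at 2188, 6421 and 3752 FPKM in Combination and 76.4, 106 and 414 FPKM in GC. The lowest Combination library was above the highest GC library, and the difference of 4.63 ± 0.74 did not pass (limma adjusted p = 0.219). Mttp, which loads lipid onto apolipoprotein B, showed 75.7, 72.8 and 33.4 FPKM against 4.21, 2.16 and 8.81 FPKM (3.41 ± 0.52, adjusted p = 0.205). Fabp2, the fatty acid carrier of enterocytes, is itself a member of the enterocyte marker list. It was at 1779 FPKM in Combination replicate 1 and 70.3 and 31.0 FPKM in replicates 2 and 3, against 1.06, 1.40 and 5.84 FPKM in GC. Apoa4 and Apob, apolipoproteins of the particles that carry dietary fat, were also separated (5.18 ± 1.49 and 3.75 ± 0.90, adjusted p = 0.511 and 0.448). The hepatocyte-rich and the intestine-rich Combination libraries were both high in these genes, and the part of tissue content in these differences was not tested.

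The 250 bases before the RefSeq start of Fabp1 are printed as the promoter of the most abundant separated member of that list. They lie at chr6:71199629-71199878 (GRCm38.p6, plus strand, RefSeq), with capitals for the TATA box. A GENCODE M21 model of the gene begins within the stretch.
Fabp1: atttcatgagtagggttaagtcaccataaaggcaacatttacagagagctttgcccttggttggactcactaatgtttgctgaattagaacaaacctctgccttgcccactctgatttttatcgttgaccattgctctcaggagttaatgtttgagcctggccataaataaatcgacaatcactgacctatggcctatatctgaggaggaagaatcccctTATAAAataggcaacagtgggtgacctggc
The TATA box matched 1 time, searched on both strands, and the GATA, HNF4 and NR5A2 letters given above matched 0 times. Of 32851 promoter windows of this length 12.4% held the TATA box.

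Hepatocyte functions stood higher in Combination as groups, in step with the 2 hepatocyte-rich libraries. All 20 hepatocyte markers had a difference above 0, with a median of 2.59. Of these 5 were separated above, against 4.48% of all genes, and none passed. With the hepatocyte and small intestinal list means as covariates, a fit in which the first is made from these same genes, the list median was -0.17. Alb, the gene of serum albumin, overlapped between groups: it was at 217, 45398.5 and 16866.5 FPKM in Combination and 441, 174 and 893 FPKM in GC. Apoa1, the main apolipoprotein of high-density lipoprotein, did not overlap, at 3721, 10870.4 and 5041 FPKM against 449, 115 and 1564 FPKM (3.76 ± 0.97, limma adjusted p = 0.480). Combination replicate 1 was thus below 2 of the GC libraries in albumin and above all of them in Apoa1, which enterocytes also make.

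Cytochrome P450 genes had the highest median of the 58 lists, 3.49 over 21 members. Of these 6 were separated above, against 4.48% of all genes, and none was called. Besides Cyp2b10, Cyp3a13 stood at 24.6, 32.4 and 11.9 FPKM against 0.885, 0.0504 and 2.23 FPKM (3.58 ± 0.53, adjusted p = 0.202), and Cyp2d26 differed by 3.99 ± 0.89 (adjusted p = 0.419). Genes of bile acid synthesis and transport had a median of 2.77 over 19 members, of which Abcg5 passed, 4 were separated and all 19 were above 0. Abcc2, which pumps bilirubin conjugates into bile, was among the separated ones, at 3.93, 34.99 and 25.03 FPKM against 0.824, 0.122 and 1.70 FPKM (3.24 ± 0.78, adjusted p = 0.455).

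Genes of the urea cycle and of gluconeogenesis had a median of 2.45 over 14 members. Of these 6 were separated above, against 4.48% of all genes, and none was called. Otc, the urea cycle enzyme that makes citrulline, was at 3.02, 122 and 47.4 FPKM in Combination and 0.302, 0.703 and 2.08 FPKM in GC (3.92 ± 1.21, adjusted p = 0.511). Pck1, the enzyme that commits carbon to gluconeogenesis, differed by 3.89 ± 1.03 (adjusted p = 0.489). Regulators of hepatocyte identity had a median of 1.61 over 15 members, with 4 separated, among them Hnf4a, Nr1i2 and Nr1i3. Hnf4a, a nuclear receptor of liver and gut epithelium, stood at 16.2, 140 and 59.7 FPKM against 4.22, 2.01 and 12.5 FPKM, and Nr1i2, the xenobiotic receptor PXR, at 3.05, 16.5 and 10.6 FPKM against 0.665, 0.478 and 1.70 FPKM. In all 4 of these genes Combination replicate 1 lay nearest to the GC libraries.

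Markers of single tissues showed which library carried them. Of 17 tested enterocyte genes 6 were separated upward, against 4.48% of all genes, and none passed (median 1.70). Without Combination replicate 1 only 8 enterocyte genes reached the mean needed for testing. Many of the 17 were thus tested through that library, and the share of all genes is not a like baseline for them. Sult1b1, a sulfotransferase, was listed at 0 in all GC libraries and at 11.2, 4.92 and 2.93 FPKM in Combination. Tff3, the trefoil peptide of goblet cells, was listed at 0 in GC and at 294, 0.500 and 0.283 FPKM in Combination, so its level rested on replicate 1. The goblet and Paneth list had a median of 1.90 over 12 members. Without Combination replicate 1 only 2 members were tested, and their median was -2.67. Muscle genes were lower (median -2.48 over 15 members), and GC replicate 2 carried most of their level. There Tnnt3, a troponin of fast muscle, reached 552 FPKM against at most 1.93 FPKM in the other 5. Of the 15, 3 were separated below, against 14.2% of all genes. The median of the members tested stayed below 0 with any 1 library left out (-3.71 to -1.20). In bulk samples fewer cells of a type and less RNA per cell cannot be told apart.

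The T cell genes at which the blockade is aimed were low in both groups. Pdcd1 (PD-1) was at 0.214, 0.0729 and 0.581 FPKM in Combination and 0.285, 0.739 and 0.592 FPKM in GC, and Ctla4 was at most 0.891 and 0.967 FPKM. These 2 and Cd8a, Cd4, Foxp3, Ifng and Prf1 had a mean under 1 FPKM and were not tested. Ifng, the gene of interferon gamma, was listed at 0 in 5 of the 6 libraries and at 0.117 FPKM in Combination replicate 2.

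Tested T cell receptor complex genes (8) had a median of -0.05 (0.21 after median-of-ratios scaling), with 4 above 0 and none separated. Cd3e, a signalling chain of that complex, was at 1.58, 1.24 and 1.26 FPKM in Combination and 0, 2.40 and 0.901 FPKM in GC (0.34 ± 0.48, limma adjusted p = 0.653). Of the cytotoxic genes 4 of 16 were tested, with a median of 1.01 and none separated. After median-of-ratios scaling 2 of these 4, Gzmb and Nkg7, were separated above, against 8.5% of all genes, and the median was 1.23. Both were low, with Combination means of 2.96 and 2.06 FPKM. Gzmb, a granzyme that cytotoxic cells release, was at 5.12, 1.75 and 2.02 FPKM against 0.163, 2.15 and 0 FPKM (1.26 ± 0.56, adjusted p = 0.511). Gzma, another granzyme, was at 31.5, 3.30 and 2.20 FPKM against 0, 2.97 and 0 FPKM. Combination replicate 1, which held the intestinal transcripts, was highest in both, and on unscaled FPKM GC replicate 2 overlapped the Combination group in each.

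Among genes of regulatory and exhausted T cells, Tnfrsf18 (GITR) was lower in all Combination libraries, at 1.74, 1.28 and 2.24 FPKM against 2.67, 3.26 and 3.86 FPKM (-0.64 ± 0.27, adjusted p = 0.511). It was the 1 separated member of the 6 tested, beside 14.2% of all genes separated below. The median of the 6 was -0.74, and Lag3, an inhibitory receptor, overlapped.

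Ligands of checkpoint receptors went both ways, with none of 12 tested past the threshold. Their median was -0.58, beside -0.36 over all genes. All Combination libraries lay below all GC libraries in 3 of them, against 14.2% of all genes, and above in 2, against 4.48%. Cd274, the gene of PD-L1, was at 5.55, 1.72 and 6.23 FPKM in Combination and 10.3, 13.0 and 12.2 FPKM in GC. Every Combination library was below every GC library, and the difference of -1.34 ± 0.41 did not pass (limma adjusted p = 0.511). It was 5.98 to 7.55 FPKM in Control and 8.85 to 12.7 FPKM in ICB. Cd80 and Cd86, the ligands of CTLA-4 and CD28 on antigen-presenting cells, were the other 2 separated below, Cd80 at 3.48, 0.737 and 0.792 FPKM against 3.89, 8.79 and 4.45 FPKM. Cd86 was at 6.91, 1.87 and 4.36 FPKM against 8.81, 14.7 and 8.25 FPKM (-1.18 ± 0.44). After median-of-ratios scaling the list held 3 members below and 3 above, against 7% and 8.5% of all genes, and its median was -0.18.

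Ceacam1, an adhesion receptor of epithelium and lymphocytes that binds TIM-3, lay the other way. It was at 12.8, 34.5 and 11.6 FPKM in Combination and 2.76, 1.51 and 2.64 FPKM in GC (2.50 ± 0.45, adjusted p = 0.304). Lgals9, galectin-9, was the second member separated above (mean 161 against 57.7 FPKM) and was picked out after its values were seen. The hepatocyte-rich replicate 2 was highest in Ceacam1 and lowest in Cd274, and the part of hepatocyte content in either difference was not tested.

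**Figure D4:**
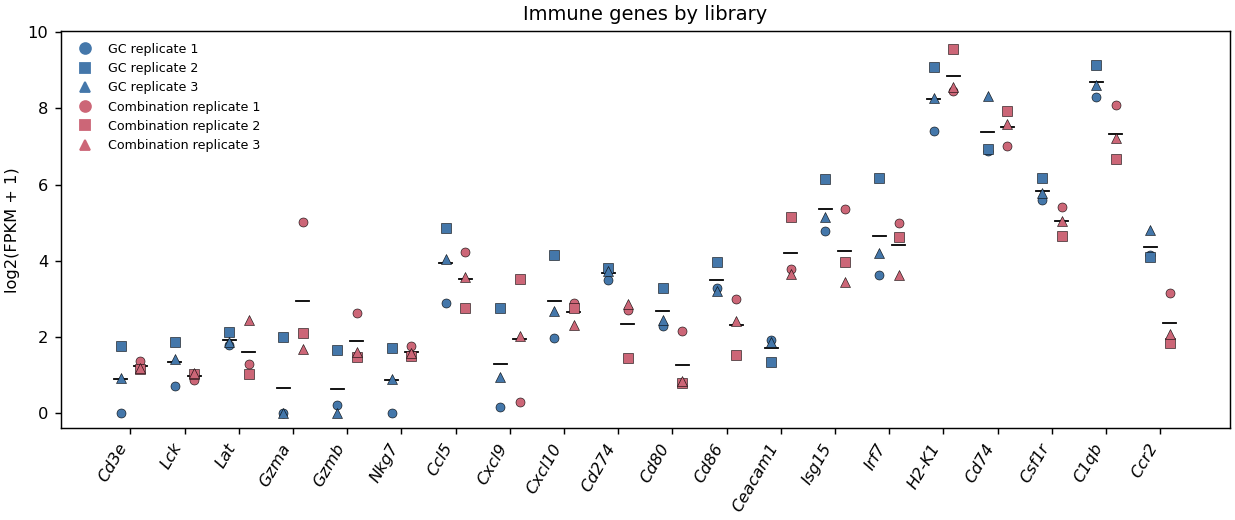
log2(FPKM + 1) of 20 immune genes in the 6 libraries, with 1 symbol per library and a bar at each group's mean. Cd274, Cd80, Cd86, Csf1r, C1qb and Ccr2 have all Combination libraries below all GC libraries and Ceacam1 all above, while T cell, interferon and MHC genes overlap.

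Interferon response genes did not separate the groups. Of 27 type I interferon response genes none passed and 1 was separated, below (median -0.40, beside -0.36 over all genes). Isg15, a ubiquitin-like interferon target, was at 40.1, 14.5 and 9.79 FPKM in Combination and 26.4, 70.2 and 34.6 FPKM in GC, both well above Control (2.64 to 5.18 FPKM). Its Combination and GC ranges overlapped (-1.11 ± 0.60, limma adjusted p = 0.511). Irf7, a transcription factor that amplifies interferon output, overlapped too (-0.24 ± 0.72). The single separated member was Xaf1, an interferon-induced proapoptotic gene, at 3.51, 2.88 and 2.38 FPKM against 5.60, 10.3 and 5.18 FPKM.

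Of 22 interferon gamma response genes 2 were separated, both below, Cd274 and the transcription factor Irf8, with a median of -0.08. Cxcl9 and Cxcl10, chemokines that draw T cells, overlapped: Cxcl9 was at 0.230, 10.5 and 3.06 FPKM against 0.120, 5.75 and 0.920 FPKM. The MHC class I list (23 genes) had a median of -0.07 with 1 separated below, Canx, the chaperone calnexin, and the MHC class II list (8 genes) -0.22 with none. After median-of-ratios scaling these 3 medians were above 0, at 0.28, 0.33 and 0.20. In the MHC class I list 3 members were then separated above, against 8.5% of all genes, and 0 below, against 7%. H2-K1, a classical class I molecule, was at 350.3, 747 and 378 FPKM against 169.7, 539.9 and 309.8 FPKM, and Cd74, the class II chaperone, at 128, 242 and 191 FPKM against 117, 122 and 318 FPKM. In none of these 4 lists did a member pass.

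In the macrophage list 3 of 20 were separated, all below, the median was -0.75 and none passed. That share is near the 14.2% of all genes separated below, and after median-of-ratios scaling 2 were separated below and the median was -0.35. Csf1r, the receptor on which macrophages depend, was at 41.1, 24.2 and 32.1 FPKM in Combination and 47.0, 70.4 and 53.8 FPKM in GC (-0.80 ± 0.32, limma adjusted p = 0.511). C1qb, a complement chain made by tissue macrophages, was at 271, 102 and 149 FPKM against 317, 561 and 392 FPKM (-1.36 ± 0.46). Gpnmb, a glycoprotein of lipid-laden macrophages, differed by -1.80 ± 0.43 (adjusted p = 0.448).

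Ccr2, the chemokine receptor of inflammatory monocytes, was at 7.95, 2.58 and 3.24 FPKM in Combination and 16.6, 16.2 and 26.8 FPKM in GC, with no overlap (-1.98 ± 0.42, adjusted p = 0.391). It and the chemokine Ccl9 (-1.43 ± 0.51) were the 2 separated of 13 myeloid chemokine and growth factor genes, a share near the 14.2% of all genes, and the list median was -1.37 (1.27 with both tissue covariates). In Control, Ccr2 ranged from 0.316 to 21.2 FPKM. Neutrophil genes had a median of -0.77 with 2 of 12 separated below, Clec4d and the receptor for granulocyte growth factor Csf3r, again near the share of all genes. Dendritic cell genes had 2 of 9 below, Irf8 and Cd83, and a median of -0.98. Nfam1, an activating receptor of myeloid and B cells, had one of the 12 smallest p-values on the lower side (2.82, 3.05 and 3.64 FPKM against 11.3, 14.7 and 11.1 FPKM, -1.67 ± 0.23, adjusted p = 0.194).

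Fibroblast and matrix genes were lower in Combination, without a call in any of their lists. Of 18 fibroblast markers 10 had all Combination libraries below all GC libraries and all 18 differences were under 0, with a median of -1.64, against 14.2% of all genes and -0.36. After median-of-ratios scaling 9 were separated below and the median was -1.28. With hepatocyte and intestinal list means as covariates the median turned to 0.17, and that of the collagen list to 0.18. That fit leaves fewer degrees of freedom, and the intestinal mean was high only in Combination replicate 1 (6.51, against 1.02 to 2.08 elsewhere). Its values are therefore imprecise, and no conclusion is drawn from them. Col1a1, the main chain of type I collagen, was at 389.6, 69.5 and 562 FPKM in Combination and 864, 1683 and 1113 FPKM in GC (-2.24 ± 0.81, limma adjusted p = 0.511). Lum, a proteoglycan that spaces collagen fibrils, was at 22.4, 11.5 and 28.7 FPKM against 68.6, 112 and 74.7 FPKM (-2.03 ± 0.41, adjusted p = 0.391). Both were lowest in the hepatocyte-rich Combination replicate 2 and highest in the muscle-rich GC replicate 2, and the part of tissue content was not tested. Values of Lum in Control were 1.79 to 21.4 FPKM, so the GC libraries were the high ones of the study.

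The collagen list had 9 of 18 members below (median -1.30), matrix proteoglycans and glycoproteins 7 of 17 (median -0.91), and collagen crosslinking and processing genes 7 of 15 (median -1.01). Loxl1, a lysyl oxidase that crosslinks elastin, may represent the last group at 18.002, 2.88 and 14.1 FPKM against 26.3, 45.5 and 29.0 FPKM. After median-of-ratios scaling these counts were 8, 5 and 3. Without Combination replicate 2 the collagen median was -0.35 over the list. Metalloproteinase genes gave 3 of 15 below, Mmp2, Mmp23 and the inhibitor Timp2, and 1 above, Mmp15, a membrane-bound metalloproteinase (6.15, 12.04 and 4.85 FPKM against 1.10, 1.96 and 1.43 FPKM). TGF-beta pathway genes gave 3 of 18 below, the receptors Tgfbr1 and Tgfbr3 and the signal transducer Smad2, and 0 after that scaling. The shares of both lists below are near the 14.2% of all genes.

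Several lower genes of smallest p belong to the stroma as well. Cygb, the globin of hepatic stellate cells and fibroblasts, was at 9.61, 7.68 and 13.4 FPKM in Combination and 35.6, 35.1 and 46.4 FPKM in GC, a ratio of means of 3.82 (-1.86 ± 0.29, limma adjusted p = 0.219). Control held 3.30 to 6.37 FPKM and ICB 10.1 to 22.4 FPKM, so GC was the highest group and Combination overlapped ICB. Wnt4, a secreted signalling ligand, was at 1.35, 2.33 and 3.37 FPKM against 10.1, 12.7 and 18.5 FPKM (-2.15 ± 0.34, adjusted p = 0.219). Cpxm1, a secreted carboxypeptidase-like protein, and Wisp2, a matricellular protein, differed by -2.46 ± 0.45 and -1.88 ± 0.36. Acta2, the smooth muscle actin of myofibroblasts, and Pecam1, of endothelium, overlapped, and no endothelial gene of 17 was separated (median -0.11, and 0.23 after median-of-ratios scaling).

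The remaining lower genes of smallest p came from other classes, and none passed. Rhno1, a factor of the ATR checkpoint response to damaged DNA, had the tightest values, at 6.39, 5.37 and 6.44 FPKM in Combination and 25.3, 25.5 and 26.1 FPKM in GC (-1.92 ± 0.22, limma adjusted p = 0.113). ICB was at 4.94 to 10.3 FPKM and Control at 7.45 to 27.6 FPKM, so low values were not restricted to Combination. C1qtnf5, a secreted C1q-like protein, the snoRNA Snord87, Arhgap4, a GTPase-activating protein, and Rasl11b, a small GTPase, differed by -2.30, -2.30, -1.39 and -1.37.

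Tumour cell genes did not order the groups. Of 13 biliary and tumour epithelial genes 1 was separated above, Krt8, and 1 below, the transcription factor Sox4, with a median of 0.58. Krt8, a keratin of simple epithelia that hepatocytes and enterocytes share, was at 157, 121 and 60.6 FPKM against 21.8, 3.55 and 41.8 FPKM (2.69 ± 0.85, limma adjusted p = 0.511). Krt19, the keratin of bile duct cells, was at 48.3, 4.11 and 3.58 FPKM against 2.56, 1.54 and 7.77 FPKM, high only in the intestine-rich library. Sox9, a transcription factor of bile duct cells, was at 42.5, 7.56 and 37.7 FPKM against 35.2, 36.6 and 62.2 FPKM and overlapped.

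Genes of proliferation and of the response to the drugs were compared because both groups had received chemotherapy. None of 20 mitosis genes and none of 21 DNA replication genes was separated or called, with medians of -0.72 and -0.72. Mki67, the proliferation antigen, was at 15.6, 2.65 and 6.49 FPKM in Combination and 9.11, 15.8 and 10.3 FPKM in GC. Of 17 p53 targets 4 were separated below, Cdkn1a, Ccng1, Bax and Zmat3, and none passed (median -0.46). Over all genes 14.2% were separated below and the median was -0.36. Cdkn1a, the p21 inhibitor of the cell cycle, was at 59.0, 39.6 and 50.2 FPKM against 71.8, 100.04 and 83.5 FPKM (-0.77 ± 0.30, adjusted p = 0.511). After median-of-ratios scaling the p53 list held 1 below and 1 above, with a median of -0.05.

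Genes that handle platinum lay higher. Of 13, 5 were separated above, against 4.48% of all genes, and none below (median 1.19), and none passed. Abcc2, named above with the bile acid genes, was also a member of this list. Slc31a1, the copper importer through which cisplatin enters cells, was at 23.5, 37.2 and 23.5 FPKM against 9.81, 13.8 and 11.2 FPKM (1.19 ± 0.29, limma adjusted p = 0.463). Gclm, the regulatory subunit of glutathione synthesis, was at 24.5, 56.8 and 36.8 FPKM against 11.8, 13.8 and 14.9 FPKM (1.40 ± 0.35, adjusted p = 0.467), and Slc47a1, an efflux transporter of organic cations, at 1.04, 37.1 and 14.9 FPKM against 0.110, 0.288 and 0.973 FPKM. Each was highest in the hepatocyte-rich replicate 2, and the part of liver content was not tested. Of 14 genes for gemcitabine uptake, activation and targets 1 was separated, below (Tk2, a mitochondrial deoxynucleoside kinase, -0.55 ± 0.25), with a median of -0.70.

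In energy metabolism, 6 of 19 oxidative phosphorylation genes were separated above, against 4.48% of all genes, and none below (median 0.17). After median-of-ratios scaling 10 of them were separated above and the median was 0.60. Sdha, a subunit of succinate dehydrogenase, was at 58.7, 115 and 69.2 FPKM in Combination and 39.9, 58.6 and 53.7 FPKM in GC (0.62 ± 0.36, limma adjusted p = 0.511). Of 16 glycolysis genes 4 were separated below (Aldoa, Hk2, Pfkfb3 and the lactate exporter Slc16a3), against 14.2% of all genes. Aldoa, an aldolase, was at 645, 95.4 and 514 FPKM against 881, 835 and 739 FPKM. After median-of-ratios scaling 1 member of the glycolysis list was separated below.

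**Figure D5:**
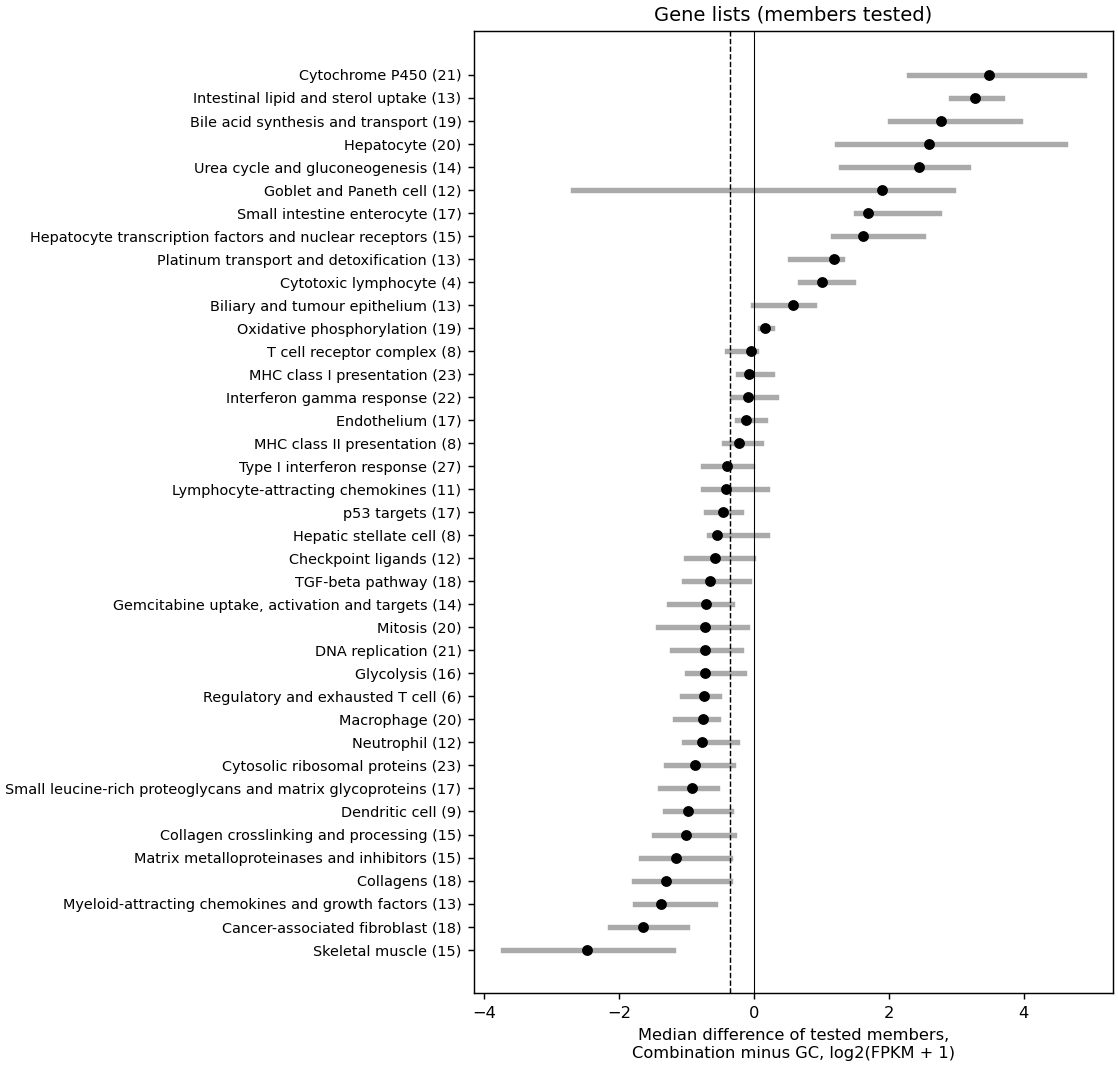
Median difference between Combination and GC over the tested members of 39 gene lists (points, number of members in brackets), with grey bars for the lowest and highest median when each of the 6 libraries is left out in turn and a dashed line at the median of all genes (-0.36). Liver and intestinal lists stand at the top, fibroblast and muscle lists at the bottom, and the goblet and Paneth list spans from -2.67 to 2.96. The low end of that list, without Combination replicate 1, is the median of only 2 members.

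One library set how many genes passed. Without Combination replicate 1, 815 genes rose (6.37% of 12803) and 327 fell (2.55%) (limma adjusted p under 0.05), and the 3 genes called from all 6 libraries were among them. The Combination group was then 2 hepatocyte-rich libraries. In that fit 12 of 20 hepatocyte markers, 19 of 21 cytochrome P450 genes, 16 of 17 bile acid genes and 11 of 14 urea cycle and gluconeogenesis genes rose and none fell. In the macrophage list 5 fell and 2 rose, in the myeloid chemokine list 4 of 13 fell, and in the fibroblast list 1 of 18 fell. No T cell receptor complex, interferon or MHC class I gene of those lists passed in either direction. With all 12 libraries sharing 1 estimate of the spread, 88 genes rose (0.68% of 12950) and 3 fell (0.0232%). Among them were Abcg8 (limma adjusted p = 0.00104), Pigr (adjusted p = 0.00266), Ceacam1 (adjusted p = 0.0255) and Cygb (adjusted p = 0.0285). Rps27rt passed in that fit and Rps27 did not. The Combination libraries differed widely among themselves, so a spread shared with Control and ICB may understate the error here.

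Whether the difference made by blockade depended on chemotherapy was tested as Combination minus GC set against ICB minus Control, over all 12 libraries and 12765 genes. It passed in 2 genes (0.0157%), both with values above 0, and in 0 genes below 0, while 1033 genes had an unadjusted p under 0.05. Abcg5 differed by 3.61 ± 0.41 between the settings (limma adjusted p = 0.0240) and Cyp2b10 by 4.88 ± 0.60 (adjusted p = 0.0278). Both had a mean of at least 1 FPKM through the Combination libraries alone. Most of their values in the other groups were at or near 0, so the shared spread may understate the error of both. Cyp2b10 was listed at 0 in Control and ICB, so its value is its difference between Combination and GC again, with no blockade-alone value to set beside it. Abcg8 missed the threshold (2.79 ± 0.39, adjusted p = 0.0535), as did Cygb (-3.23 ± 0.46, adjusted p = 0.0535), which in the group means was lower with blockade beside chemotherapy and higher with blockade alone. Cd274 (-1.91 ± 0.47, adjusted p = 0.325) and Lum (-3.92 ± 0.95, adjusted p = 0.325) did not pass. Hepatocyte markers made up 0.00205% to 0.0161% of FPKM in Control and 0.0723% to 0.423% in ICB, and their part in the interaction was not tested.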

How the data were processed

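Values were FPKM per gene symbol and library, as deposited by the authors. The submitters' processing notes list mm10 and, with no roles, HISAT2 (aligner), HTSeq (counter), SAMtools, cutadapt and FastQC. Versions, the step that made FPKM and strand use are not given in the sources used here. Per the labels, total RNA and stranded Qiagen kits were used. Whole reads could not be recovered: over 15 library pairs the fullest bin of ratios of values up to 0.1 FPKM held at most 17.3% of genes. Depth is therefore unknown and no counting intervals are given.

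Groups came from the titles. The 6 libraries were fitted with limma 3.58.1 in R 4.3.3 on log2(FPKM + 1), where changes of low genes come out too small, with intensity trend (4 residual degrees of freedom) and Benjamini-Hochberg adjustment. The interaction used 12 libraries. The step was tested on simulated data. Named were the 12 separated genes of smallest p each way with a group mean of at least 5 FPKM, the 4 best members by p of each described list, and a set of 30 genes. Other separated members of some lists were named after their values were seen. Members, lists (58, with 929 of 941 entries found) and tests were chosen with earlier results of these data known. Some named genes are not reported here. Locations were found for 182 of 184 named genes. Promoters are RefSeq. Alternatives changed pseudocount, filter, scaling, trend, covariates, block and libraries.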

Additional observations from a re-analysis of the deposited data

Results flagged for a closer look

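In 2 genes the difference made by blockade beside chemotherapy differed from that made by blockade alone, by a limma interaction test over 12 libraries. Abcg5, a sterol transporter subunit, differed by 3.61 on log2(FPKM + 1) (SE 0.41, adjusted p = 0.0240). Its highest values were 0.132 FPKM in ICB, 0.995 FPKM in GC and 18.8 FPKM in Combination, and every Control library listed it at 0. Cyp2b10, a cytochrome P450, differed by 4.88 (SE 0.60, adjusted p = 0.0278). It was listed at 0 in all Control and ICB libraries and was at most 0.0809 FPKM in GC, so its value restates the difference between Combination and GC. Both genes reached the mean needed for testing through the Combination libraries alone. Most of their values elsewhere were at or near 0, so the shared spread may understate the error, and neither passed with a pseudocount of 0.1.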

How the results depend on the processing

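Beside the 3 genes called, 0 passed with a pseudocount of 0.1, without a filter, without the intensity trend, with both tissue covariates, or (chosen after seeing the data) without both tissue-rich libraries, Combination replicate 1 and GC replicate 2. All 12 libraries gave 91, and leaving out 1 library gave 0 to 1142. The 2 interaction calls became 0 with a pseudocount of 0.1 or a mean of at least 10 FPKM, 7 without a filter, 6 after quantile normalisation, 9 without the trend, and 0 to 865 when 1 library was left out. With the replicate block, counts were 0 and 0. Deviations of same-numbered libraries correlated at 0.174, -0.157 and 0.151, not every library correlated best with its own number, and the numbers were not taken as pairs.

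Named genes that changed sign did not pass in either fit. With hepatocyte and intestinal content as covariates these were Apoa1 (-1.32), Apoa4 (-2.45), Tnnt3 (5.79), Krt8 (-2.15), Lck (0.13), Lat (0.97), Ccl5 (0.52), Lag3 (0.80), Csf3r (0.23), Ifit1 (0.053), Bgn (0.36), Loxl2 (0.68), Ccng1 (0.13), Cxcl10 (0.98), Cd74 (-1.69), Irf7 (1.10), Mki67 (0.078), Krt19 (-2.18), Acta2 (0.25), Pecam1 (1.19) and Acta1 (7.15). With hepatocyte content alone they were Ccl5 (0.15), Ube2c (0.038), Cxcl9 (-0.24), Cxcl10 (0.012), Cd74 (-0.45), Irf7 (0.28), Mki67 (0.14) and Acta2 (0.16). Median-of-ratios scaling turned Cxcl10 (0.095), Irf7 (0.17) and Pecam1 (0.021). Leaving out both tissue-rich libraries turned Cxcl10 (0.22), Irf7 (0.22), Krt19 (-0.21) and Pecam1 (0.0074). Leaving out 1 library gave ranges across 0 for Ccl5 (-0.94 to 0.049), Cd3e (-0.11 to 0.38), Cxcl9 (-0.13 to 1.49), Cxcl10 (-0.76 to 0.33), Cd74 (-0.12 to 0.59), Irf7 (-0.76 to 0.51), Pecam1 (-0.70 to 0.12) and Acta1 (-4.45 to 0.35). Medians of lists turned too, among them, with both covariates, -0.17 for hepatocytes (-0.40 with hepatocyte content alone, a covariate made from the same genes), 0.17 for fibroblasts, 0.18 for collagens, 0.65 for proteoglycans and glycoproteins, 0.34 for crosslinking, 1.05 for metalloproteinases, 0.24 for TGF-beta, 0.17 for macrophages, 0.84 for neutrophils, 1.27 for myeloid chemokines, 0.28 for checkpoint ligands, 0.38 for type I interferon, 0.81 for interferon gamma, 0.98 for lymphocyte chemokines, 0.37 for regulatory and exhausted T cells, 1.06 for the T cell receptor complex, 0.69 for endothelium, 0.10 for MHC class I, 5.79 for muscle, -1.03 for biliary epithelium and -0.18 for oxidative phosphorylation. With hepatocyte content alone, mitosis was at 0.15 and DNA replication at 0.034. At a mean of at least 10 the cytotoxic value was -0.42, which is the difference of Ccl5 alone. Without both tissue-rich libraries goblet and Paneth genes were at -2.90 and biliary genes at -0.21. Without Combination replicate 1 alone, only 2 goblet and Paneth genes were tested. The causes were not tested. The fit with both tissue covariates leaves few degrees of freedom, and its intestinal covariate is high in Combination replicate 1 only, so its values are imprecise. Depth is unknown, so levels near 0 have no stated precision.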
